A study of Homo sapiens with 4 samples.

Results

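The genes described here are 10 genes of cell volume control: the LRRC8 subunits of the volume-regulated anion channel (LRRC8A, LRRC8B, LRRC8C, LRRC8D and LRRC8E), the transcription factor NFAT5, and the osmolyte genes SLC5A3, SLC6A6, AKR1B1 and HSPA4L. They were listed by name, not by a measured value, though with earlier results of these data known. All 10 were found once among the 60682 genes kept from the deposited table. RNA-seq was done on total RNA of JJN3, an established line of human multiple myeloma, a cancer of plasma cells. Cells were transduced with a short hairpin RNA (shRNA) against WNK1 (shWNK1, 2 libraries) or with the NS shRNA, the control (NS, 2 libraries). All cells were grown in the same mix of DMEM, IMDM and serum, and all carried 1 of these hairpins. A second WNK1 hairpin and a second line were not analysed here, and the hairpin sequence and the time after transduction are not given in the sources used here. The labels do not say whether replicates came from separate cultures or transductions, so each p-value reflects how far these libraries vary, and that may be technical.

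A cell that swells opens volume-regulated anion channels and loses chloride, taurine and other small organic solutes, and water follows. These channels are built from LRRC8 proteins: LRRC8A is the subunit that every working channel needs, and its partners LRRC8B to LRRC8E set which solutes pass. A cell in salty surroundings does the opposite and gathers organic osmolytes, largely by switching on genes through NFAT5, also called TonEBP. WNK1, the target of the hairpin, is a chloride-sensitive kinase that acts through the kinases OXSR1 and STK39 on chloride cotransporters and responds to cell shrinkage.

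Total counts ran from 16973521 to 20164122 a library. A count of 0 allows a level of up to 3 counts, which equals 0.149 to 0.177 CPM (counts over the library total, with TMM factors for the levels below). WNK1, the targeted gene, had 325 and 403 counts with the WNK1 hairpin and 4911 and 4148 with the NS hairpin, a 13.9-fold lower level in the direction of the labels. All 8 plasma cell markers examined were detected, with a summed level of 2203 to 2243 CPM in shWNK1 and 2524 to 2590 CPM in NS cells. Of these 8, 5 fell, among them SDC1 (log2 fold change -1.32) and MZB1 (-0.98), PRDM1 and CCND2 rose by 0.25 and 0.44 on the log2 scale, and TNFRSF17 was not called. The 4 mature B cell markers summed to 2.98 to 3.21 CPM in shWNK1 and 6.68 to 8.15 CPM in NS cells, with MS4A1 and CD22 at 0 counts. Of the 3 T and NK and 3 myeloid markers, CD3D and LYZ were at 0 and each list summed to at most 0.821 CPM. The 4 stromal or epithelial markers summed to 128 to 134 CPM in shWNK1 and 120 to 131 CPM in NS cells, nearly all of it EPCAM, and COL3A1 was at 0. The part of these marker differences in the results was not tested.

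Transcripts of LRRC8A, the subunit every channel needs, were lower in shWNK1 cells, while those of its partners LRRC8B and LRRC8C were higher and LRRC8D was not called. The osmolyte genes were split. SLC5A3, the myo-inositol transporter, rose, the taurine transporter SLC6A6 and the aldose reductase AKR1B1 fell, and NFAT5 and HSPA4L were not called. Of the 10 genes, 9 were tested (edgeR quasi-likelihood test over 14864 genes, called at a Benjamini-Hochberg adjusted p under 0.05). Of these 9, 6 were called, or 66.7%, against 38.8% of all genes tested. With a filter of 1 CPM in 2 libraries these shares were 66.7% and 43.1%. The 10 genes were chosen with earlier results of these data known, so the excess is no independent evidence. Without shWNK1 replicate 1, 3 of the 9 were called (33.3%; LRRC8B and SLC5A3 rose and LRRC8A fell), against 23% of 15780 genes tested. In the fit to all libraries, the 3 that rose stand beside 18.5% of all genes that rose, and the 3 that fell beside 20.2% that fell. The median log2 fold change was -0.04 over the 9 genes and 0.01 over all genes tested. LRRC8E, with almost no counts, was not tested. The largest change among the 9 was 1.54-fold, and 21.6% of all tested genes had a larger one.

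**Figure D1:**
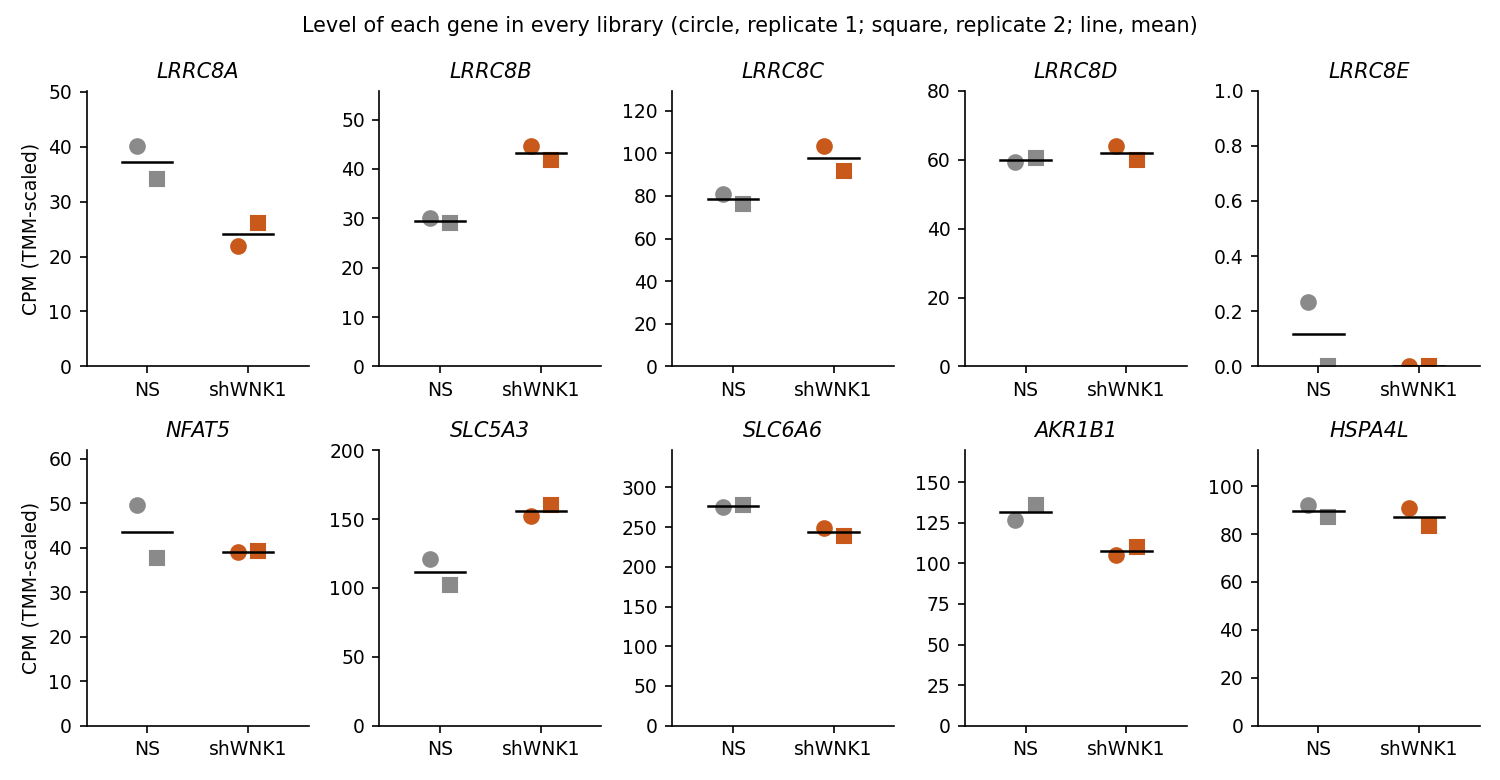
Level of each gene in every library, in CPM on TMM-scaled library sizes (y axis, from 0), by group (x axis). Circles are replicate 1, squares are replicate 2 and lines are group means. The shWNK1 points lie below both NS points for LRRC8A, SLC6A6 and AKR1B1, above both for LRRC8B, LRRC8C and SLC5A3, and overlap them for LRRC8D, NFAT5 and HSPA4L. Groups of 2 libraries can lie apart by chance: an exact two-sided permutation test cannot give a p below 0.333. LRRC8E has 4 counts in NS replicate 1 and 0 elsewhere.

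LRRC8A (ENSG00000136802.11, chr9:128882112-128918039, plus strand, hg38) had 382 and 537 counts with the WNK1 hairpin and 685 and 577 with the NS hairpin. Its levels were 21.9 and 26.1 CPM against 40.2 and 34.1 CPM, so both shWNK1 libraries lay below both NS libraries. The mean fell 1.54-fold, from 37.1 ± 4.29 to 24.0 ± 2.99 CPM (SD, n = 2 each; log2 fold change -0.63, 95% interval -0.86 to -0.39, edgeR adjusted p = 5.8e-05). In these bulk libraries, fewer cells with the transcript and less of it per cell cannot be told apart. No exon of another gene overlaps those of LRRC8A in the deposited table, and KYAT1, which starts 382 bases away on the opposite strand, had 1 to 11 counts a library. With any 1 library left out the log2 fold change lay between -0.77 and -0.50, and every such fit called it.

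LRRC8B, LRRC8C and LRRC8D encode partner subunits and lie side by side on the plus strand of chromosome 1, with gaps of 35.2 and 51.1 kb between them. LRRC8B (ENSG00000197147.13, chr1:89524836-89597864) stood at 44.7 and 41.8 CPM in shWNK1 and at 30.1 and 29.0 CPM in NS cells, from 490 to 860 counts a library. Both shWNK1 libraries were above both NS libraries, and the level rose 1.47-fold (log2 0.55, 95% interval 0.34 to 0.76, edgeR adjusted p = 4.5e-05). LRRC8C (ENSG00000171488.15, chr1:89633072-89769903) stood at 104 and 91.7 CPM against 80.8 and 76.1 CPM. It rose 1.24-fold (log2 0.31, 95% interval 0.16 to 0.47, edgeR adjusted p = 0.0015), with no overlap between groups, but without shWNK1 replicate 1 the adjusted p was 0.129.

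LRRC8D (ENSG00000171492.14, chr1:89821014-89936611), the partner known for passing taurine and uncharged solutes, gave 64.1 and 59.9 CPM in shWNK1 and 59.3 and 60.4 CPM in NS cells. The groups overlapped, and the log2 fold change was 0.05 with a 95% interval of -0.12 to 0.22 (edgeR adjusted p = 0.686). The upper end of that interval lies below the lower end of the interval for LRRC8B. The opposite-strand gene LRRC8C-DT overlaps 10.5% of the exon bases of LRRC8B and had 47 to 93 counts. Strand was not used in counting, so reads over both genes cannot be told apart.

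Around this trio the other genes did not move as 1 block. Within 500 kb on either side, 10 genes were tested, a window chosen after the values were seen. Beside LRRC8B and LRRC8C, GBP4 and the pseudogene GEMIN8P4 rose and GBP1 fell, while GBP2, PTGES3P1, LRRC8C-DT, LRRC8D and ZNF326 were not called. GBP1, GBP2 and GBP4 are related in sequence, so their counts are less certain.

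LRRC8E (ENSG00000171017.11, chr19:7888505-7902021) had 4 counts in NS replicate 1 and 0 in the other 3 libraries. An opposite-strand gene covers 74.3% of its exon bases and itself had 2 to 12 counts, so part of the gene could give it no reads. LRRC8E was thus at or near the floor of 3 counts in each library, and no fold is given.

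Levels of different genes can be compared only per length, here as TPM (counts per kilobase of all annotated exons, scaled to a common sum in every library). In NS cells LRRC8D was the highest subunit at 41.9 ± 0.262 TPM, followed by LRRC8A at 24.1 ± 3.24 and LRRC8C at 22.7 ± 1.39, whose library ranges overlapped, and by LRRC8B at 12.2 ± 0.557. In shWNK1 cells the order was LRRC8D at 45.0 ± 2.49, LRRC8C at 29.3 ± 2.74, LRRC8B at 18.6 ± 1.01 and LRRC8A at 16.2 ± 1.89 TPM (SD, n = 2 each). In that second order no neighbours overlapped, though the lower LRRC8B library (17.9 TPM) stood close to the higher LRRC8A library (17.5 TPM), and LRRC8A went from sharing the second place to the lowest of the 4 detected subunits.

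As a share of the summed LRRC8 level, LRRC8A made up 25.2% and 22.5% in the NS libraries and 13.2% and 16.5% in the shWNK1 libraries. LRRC8B made up 12.0% and 12.2% in NS and 17.2% and 16.8% in shWNK1 cells. LRRC8C went from 22.6% and 22.4% to 27.9% and 25.8%, and these 3 sets of shares did not overlap between groups. LRRC8D held 40.1% and 42.9% in NS and 41.7% and 40.8% in shWNK1 cells, which overlap. On exon bases free of other genes, the mean share of LRRC8A was 22.6% in NS and 14.1% in shWNK1 libraries. In the same order it was 12.8% and 18.0% for LRRC8B, 22.0% and 26.1% for LRRC8C, and 42.3% and 41.8% for LRRC8D. The summed level of the subunits was 105 and 97.2 TPM in NS and 112 and 106 TPM in shWNK1 libraries. TPM lack the TMM factors of the tested levels. LRRC8D, not called, went from a mean of 59.9 to 62.0 CPM but from 41.9 to 45.0 TPM. The difference in the summed level thus depends in part on the scaling, and it was not tested. The ratio of LRRC8A to LRRC8B, LRRC8C and LRRC8D together was 0.337 and 0.290 in NS and 0.152 and 0.198 in shWNK1 libraries. With 2 libraries against 2, an exact two-sided permutation test cannot give a p below 0.333, so these shares are given without a test.

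**Figure D2:**
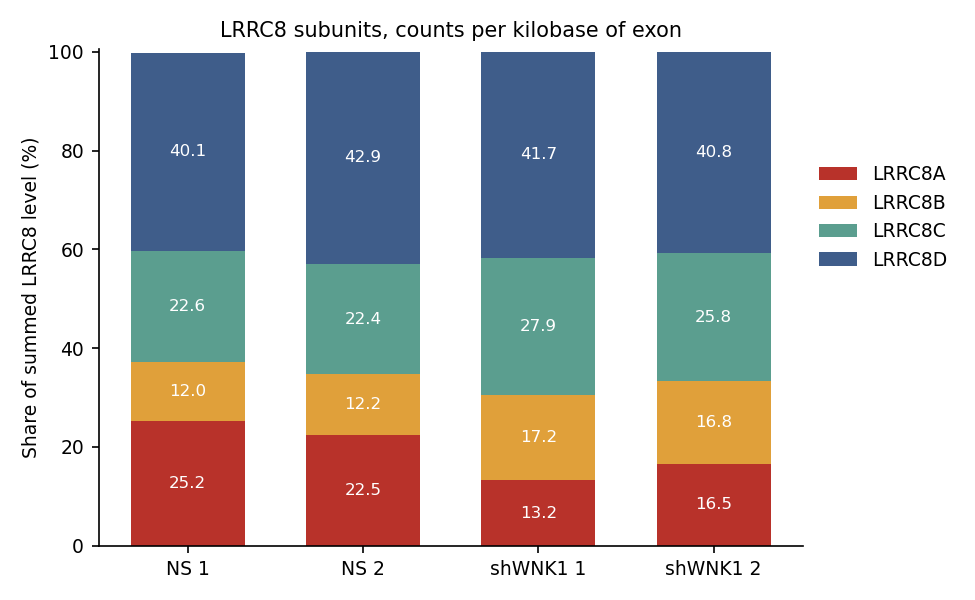
Share of each LRRC8 subunit in the summed LRRC8 level (y axis, percent, from counts per kilobase of exon) in the 4 libraries (x axis). Each stack is 1 library. LRRC8E is left undrawn because its share was at most 0.178%, or 0.656% on exon bases free of other genes. The bottom segment, LRRC8A, takes 25.2% and 22.5% in NS and 13.2% and 16.5% in shWNK1 libraries, while the top segment, LRRC8D, stays between 40.1% and 42.9%.

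NFAT5 (ENSG00000102908.22, chr16:69565094-69704666, plus strand), the osmotic stress factor, stood at 39.0 and 39.3 CPM in shWNK1 and at 49.7 and 37.7 CPM in NS cells. The shWNK1 libraries lay between the NS libraries. The log2 fold change was -0.16 with a 95% interval of -0.38 to 0.06 (edgeR adjusted p = 0.264). The NS libraries decide this value: leaving out NS replicate 1 gave 0.05, and leaving out NS replicate 2 gave -0.34, which was called (edgeR adjusted p = 0.0046). A gene of the same strand with 0 counts in all 4 libraries overlaps 9.68% of the NFAT5 exon bases.

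SLC5A3 (ENSG00000198743.7, chr21:34073578-34106260, plus strand), which brings myo-inositol into the cell with sodium, was at 152 and 160 CPM in shWNK1 and 121 and 102 CPM in NS cells. Both shWNK1 libraries were higher, and the level rose 1.40-fold from 112 ± 13.7 to 156 ± 5.84 CPM (SD, n = 2 each; log2 0.48, 95% interval 0.34 to 0.63, edgeR adjusted p = 3.2e-06). It was called in all 12 alternatives tried. The first exon of SLC5A3 lies within an exon of MRPS6, a mitochondrial ribosomal protein gene on the same strand, and in all 265 exon bases (2.29% of SLC5A3) belong to both. MRPS6 was counted 647 and 662 times in shWNK1 and 402 and 467 times in NS libraries, and it rose too (log2 0.44, SE 0.115, edgeR adjusted p = 0.0028). The RefSeq start of the 2 genes is the same base, and the 30 bases around it (chr21:34073563-34073592, plus strand, RefSeq on GRCh38.p14) are printed because 2 genes that rose begin there, with capitals from the start onward.
SLC5A3 and MRPS6 start: gcgctctcggaccgtGCTTTCGCCGCCTGG

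SLC6A6 (ENSG00000131389.17, chr3:14402576-14489349, plus strand), which takes up taurine, was the most counted of the 10 genes, with 4344 to 4907 counts a library. It stood at 249 and 239 CPM in shWNK1 and at 275 and 278 CPM in NS cells, with no overlap. The fall was 1.13-fold (log2 -0.18, 95% interval -0.30 to -0.06, edgeR adjusted p = 0.014). This call did not hold without shWNK1 replicate 1 (adjusted p = 0.104), without shWNK1 replicate 2 (0.241) or with upper-quartile scaling (0.0541).

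AKR1B1 (ENSG00000085662.14, chr7:134442356-134459284, minus strand), the aldose reductase that makes sorbitol from glucose, was at 105 and 110 CPM in shWNK1 and 127 and 136 CPM in NS cells. Again the groups did not overlap, and the level fell 1.22-fold (log2 -0.29, 95% interval -0.43 to -0.15, edgeR adjusted p = 0.0010). Without shWNK1 replicate 1 the adjusted p was 0.0731. The 8 processed pseudogenes of AKR1B1 in the table had 0 counts in every library, and reads that fit a copy as well as the gene would be lost to the mapping quality minimum.

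HSPA4L (ENSG00000164070.12, chr4:127781821-127840733, plus strand), a chaperone of the HSP110 group known as an osmotic stress protein, was at 90.9 and 83.3 CPM in shWNK1 and 92.2 and 87.1 CPM in NS cells. The groups overlapped (log2 -0.04, 95% interval -0.20 to 0.11, edgeR adjusted p = 0.713), and the interval includes a fall as large as that of SLC6A6. Per length, the osmolyte genes spanned a wide range in NS cells: AKR1B1 at 122 ± 3.77, SLC6A6 at 114 ± 1.24, SLC5A3 at 32.8 ± 4.64, HSPA4L at 26.6 ± 1.57 and NFAT5 at 9.07 ± 1.92 TPM. In shWNK1 cells AKR1B1 (104 ± 2.71 TPM) and SLC6A6 (104 ± 3.87 TPM) were level, with overlapping ranges, and SLC5A3 was at 47.6 ± 1.43 TPM.

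**Figure D3:**
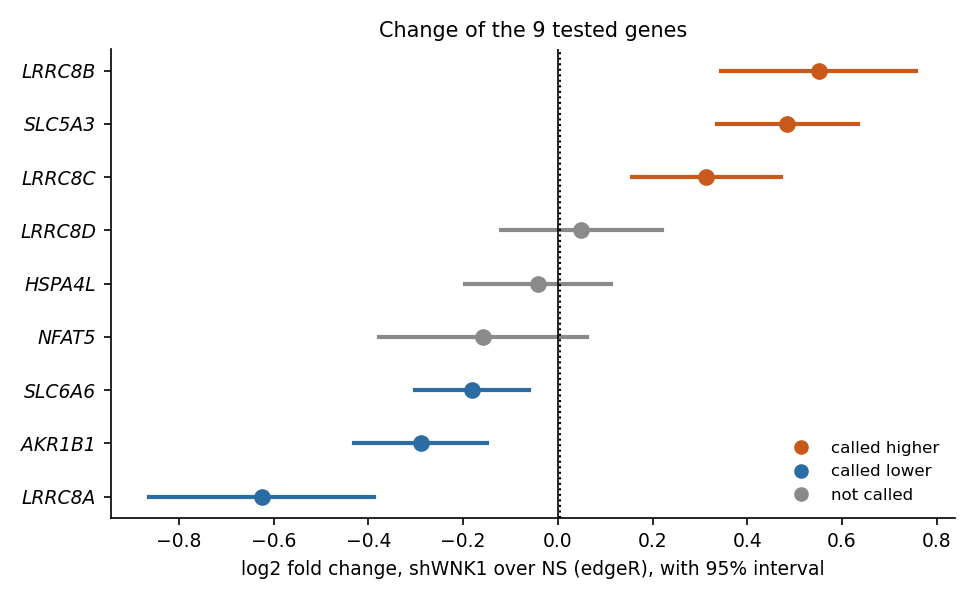
Log2 fold change of shWNK1 over NS (x axis) for the 9 tested genes (y axis), with 95% intervals from the edgeR fit. The solid line is 0 and the dotted line is the median of all genes tested, 0.01. Intervals of LRRC8B, SLC5A3 and LRRC8C lie wholly above 0, those of LRRC8A, AKR1B1 and SLC6A6 wholly below, and those of LRRC8D, HSPA4L and NFAT5 cross it.

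Over 12 other ways of processing the counts, the direction of LRRC8A, LRRC8B, LRRC8C, SLC5A3, SLC6A6 and AKR1B1 never changed. LRRC8D, not called, also kept its sign, but at log2 values of only 0.0049 to 0.0933. All these fits reuse the same libraries. NFAT5 changed sign without NS replicate 1 and HSPA4L without shWNK1 replicate 2, where it was 0.02.

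**Figure D4:**
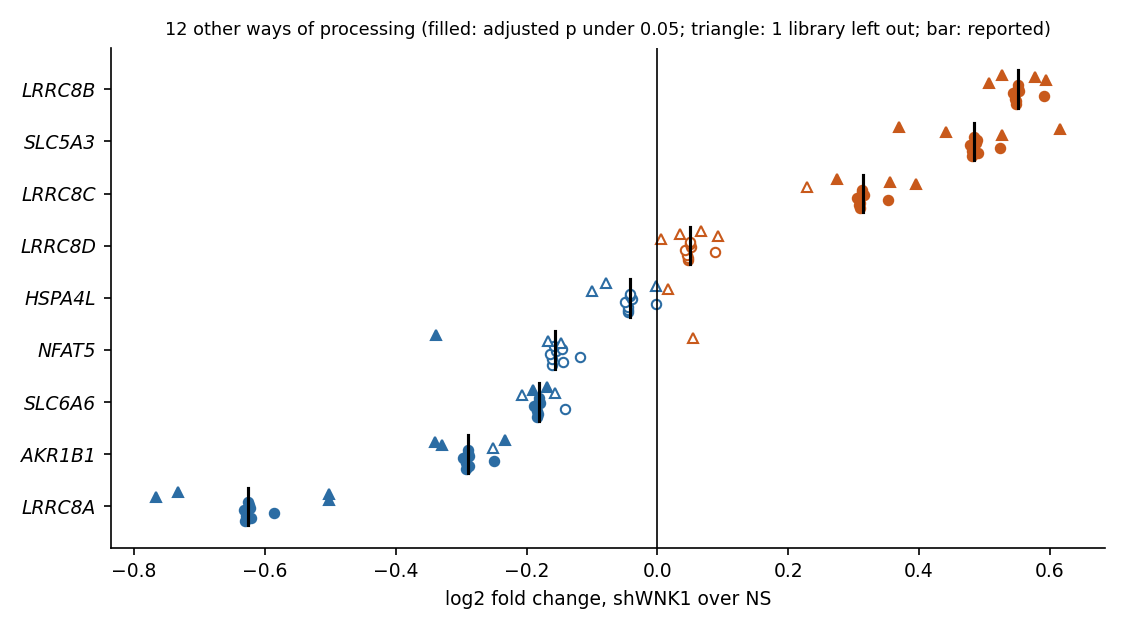
Log2 fold change of shWNK1 over NS (x axis) for each tested gene (y axis) under 12 alternatives, with the reported value as a black bar. Filled symbols have an adjusted p under 0.05, triangles leave out 1 library, and orange and blue mark values above and below 0. All symbols of LRRC8A, LRRC8B and SLC5A3 are filled, and NFAT5 has symbols on both sides of 0.

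Sequence features of 2 kinds were looked for, the first in all 10 genes and the second in the 8 with a promoter window. The first is the 6-base word AGTATC in the 3′ UTR, which an earlier look at these data had linked to genes that fell, so the members are no independent evidence on it. In the longest annotated 3′ UTR of each gene (GENCODE v29, hg38), 5 of the 10 held the word, against 23.5% of 11884 tested genes with a 3′ UTR searched. LRRC8A, which fell, held it 2 times in 1668 bases. LRRC8B, which rose, held it 1 time in 4821 bases, and LRRC8D, HSPA4L and NFAT5, which were not called, held it 2 times in 966, 1 time in 7859 and 5 times in 8315 bases. LRRC8C, LRRC8E, SLC5A3, SLC6A6 and AKR1B1 did not hold it, and of these SLC6A6 and AKR1B1 fell. The median 3′ UTR of the tested genes was 1395 bases, so 4 of the 5 holders had a longer one. Among the genes without the word, so did LRRC8C (4551 bases), SLC5A3 (8907) and SLC6A6 (4342), but not LRRC8E (1108) and AKR1B1 (378). The sites of LRRC8A are printed because it had the largest change, and those of LRRC8B and LRRC8D because these subunits hold the word without a fall. The word is in capitals, and all are on the plus strand.
LRRC8A, chr9:128916519-128916548: gagcgagaggacAGTATCtgtggggctggc
LRRC8A, chr9:128918001-128918030: agactcggtcacAGTATCaaataaaatcta
LRRC8B, chr1:89596371-89596400: atagagatcctcAGTATCtcagtgctgtgg
LRRC8D, chr1:89936454-89936483: aacacaacctccAGTATCaccaccatttgg
LRRC8D, chr1:89936491-89936520: cacagaatcacaAGTATCatttaatttctt

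The second feature is TGGAAA, the core of the sites that NFAT5 binds, on either strand of the 300 bases around each RefSeq start (250 before, 50 after). The promoter table held 13 such windows for 8 of the 10 genes, all but NFAT5 and SLC6A6. The core was present in 2 of these 13 windows (15.4%), both of HSPA4L, and in 20.8% of the 35116 windows of all genes. At its farthest downstream start HSPA4L had 1 match 17 bases before the start and 1 on the other strand 7 bases before it. At another start it had 1 match 181 bases before. The stretch with the pair of matches (chr4:127783494-127783533, plus strand, GRCh38.p14) is printed with the core in capitals on either strand.
HSPA4L: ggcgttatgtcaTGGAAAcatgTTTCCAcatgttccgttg

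These letters are a description of the window and not a measured site. SLC5A3 and AKR1B1 both lacked the core in their windows. Bases outside the windows were not searched, so sites farther away would be missed. Control of these genes by NFAT5 was not tested.

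Other genes of volume control went both ways as well. Among 22 other volume channels and sensors, 19 were tested: 4 rose, 5 fell and 10 were not called, with a median log2 fold change of -0.02. The calcium-activated potassium channel KCNN4 rose 2.03-fold (4.77 ± 0.140 to 9.68 ± 1.04 CPM, edgeR adjusted p = 1.3e-04), and the channel kinase TRPM7 rose 1.32-fold (adjusted p = 5.9e-05). The mechanosensitive channel PIEZO1 fell 1.45-fold (523 ± 13.1 to 362 ± 3.53 CPM, edgeR adjusted p = 3.8e-09), and CLNS1A, once proposed as a swelling-activated channel, fell 1.38-fold (adjusted p = 1.4e-06).

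Of 25 other genes that move or make osmolytes, 18 were tested: 5 rose, 6 fell and 7 were not called, with a median of -0.12. The amino acid transporter SLC38A2, which is induced by hypertonic medium, rose 2.32-fold (176 ± 7.59 to 408 ± 3.79 CPM, edgeR adjusted p = 4.2e-17). PNPLA6, a phospholipase that yields the osmolyte glycerophosphocholine, rose 1.35-fold (adjusted p = 3.1e-05). SLC44A1, which carries choline, fell 2.99-fold (97.1 ± 10.4 to 32.4 ± 1.23 CPM, edgeR adjusted p = 2.3e-15), and SORD, which turns the sorbitol made by AKR1B1 into fructose, fell 1.67-fold (adjusted p = 2.9e-10). SLC6A12, the betaine transporter and a known NFAT5 target, had 0 counts in all 4 libraries and is named after its values were seen. The rises numbered 3 without shWNK1 replicate 1.

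The third list held 27 relatives, regulators and other reported targets of NFAT5, of which 23 were tested: 4 rose, 8 fell and 11 were not called, with a median of -0.04. The kinase gene SGK1 rose 3.56-fold (6.27 ± 0.00668 to 22.3 ± 1.47 CPM, edgeR adjusted p = 3.0e-11), and MAP3K3, a kinase upstream of p38, rose 1.34-fold (adjusted p = 1.6e-04). The chaperone HSP90AA1 fell 1.53-fold (2023 ± 88.7 to 1320 ± 40.4 CPM, edgeR adjusted p = 1.3e-10), and PARP1, a DNA repair enzyme reported to bind NFAT5, fell 1.47-fold (adjusted p = 9.1e-10). S100A4, a calcium-binding protein named after its values were seen, had 0 and 4 counts in shWNK1 and 29 and 20 counts in NS libraries and was called lower. Called shares of the 3 lists were 47.4%, 61.1% and 52.2%, beside the 38.8% of all genes. The lists were written with earlier results of these data known, so these shares are no independent evidence. The shWNK1 and NS libraries did not overlap for 6 of the 9 tested members. In the 3 lists this held for 14 of 19, 15 of 18 and 15 of 23 tested genes, in order. The share of all tested genes without overlap is not given here, so such separation is a description only.

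**Figure D5:**
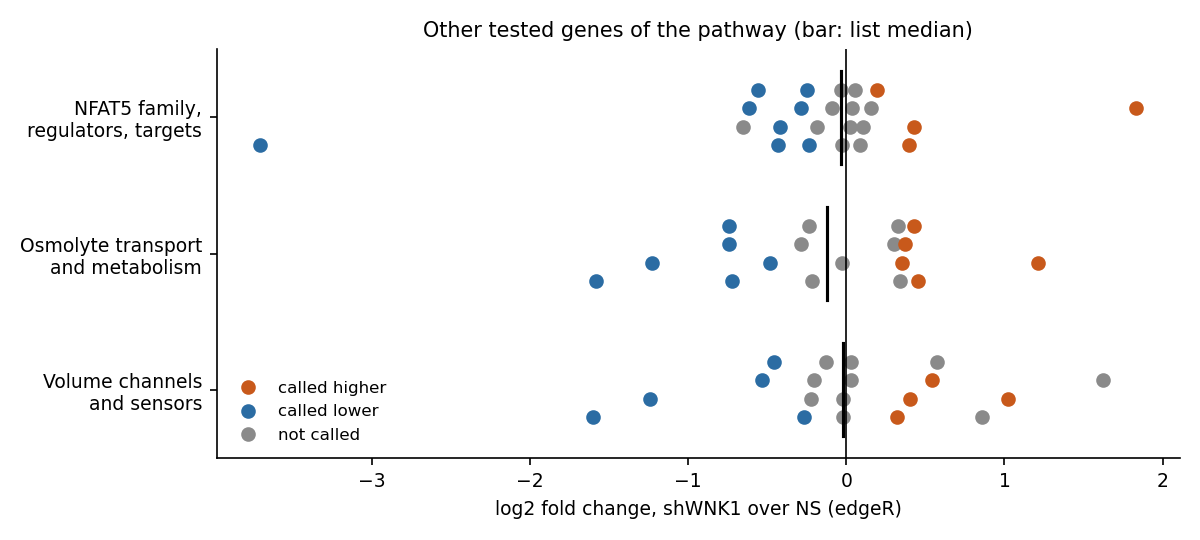
Log2 fold change of shWNK1 over NS (x axis) for the tested genes of the 3 lists (y axis), 1 point a gene, with list medians as black bars. Each list has called genes on both sides of 0, and the medians are -0.02, -0.12 and -0.04.

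Genes whose pattern over the 4 libraries was most like that of LRRC8A were sought among 4226 protein-coding genes with a mean CPM within 2-fold, by the root mean square difference of centred log2 CPM. NOPCHAP1 (0.0340), GADD45B (0.0369) and RXYLT1 (0.0379) came closest, and all 3 fell, by 0.56, 0.63 and 0.65 on the log2 scale. For NFAT5, among 4469 genes, TMEM38B (0.0139), IL17RA (0.0177) and ANKEF1 (0.0246) came closest, and none of these 3 was called. These genes were picked for their likeness in the same libraries, so their similar fold changes follow from the choice. With 4 libraries many genes share a pattern, and these names are a description.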

How the data were processed

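Raw counts per gene were made by the authors with featureCounts 2.0.0 on GENCODE 34. Per the file headers, paired reads were counted as fragments with strand setting 0 and mapping quality at least 20. The submitters' processing notes name Trimmomatic, STAR and hg38. Reads over 2 genes were not asked for and are lost to both. The authors' deposited table also gives the exon length used for TPM. The table lists 60728 genes. One broken gene and 45 pseudoautosomal Y copies at 0 were left out, and 60369 of 60682 identifiers matched a symbol. The title of shWNK1 replicate 2 was read as a misspelling.

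Counts were tested with edgeR 4.0.16 (R 4.3.3): filterByExpr, TMM, glmQLFit (robust) and glmQLFTest, two-sided, group as the only term, 2 residual degrees of freedom, Benjamini-Hochberg over 14864 genes. Alternatives used DESeq2 1.42.0, limma 3.58.1, other factors and filters, a replicate block, and each library left out. On simulated counts, 72.7% of genes changed 1.5-fold and 9.1% of those changed 1.25-fold were called. The simulation used the same dispersion for every gene and gave 117 calls among 14515 genes. In the data 5760 genes were called, which makes the cutoff on p looser. These simulated shares are therefore not the power of the test in the data. Named genes were WNK1, the 10 members, the 2 rising and 2 falling genes of smallest p in each list, and the 3 genes most like LRRC8A and NFAT5. Of the genes overlapping or starting within 1000 bases of a member, only some were named. Genes that overlap 2.77%, 6.78%, 2.94% and 6.29% of the exon bases of LRRC8C, LRRC8D, SLC6A6 and HSPA4L, in order, were not named. Cell type markers came from a fixed list; which of them to name, the genes within 500 kb of the LRRC8B to LRRC8D trio, SLC6A12 and S100A4 were chosen after their values were seen. The members and lists were chosen with earlier results of these data known. A further marker list is not reported here.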

Additional observations from a re-analysis of the deposited data

How the results depend on the processing

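The number of genes called was 5760, and it lay between 3627 and 5709 with 1 library left out, lowest without shWNK1 replicate 1 and 3666 without shWNK1 replicate 2. A fit without 1 library assumes that the lone library of its group varies like the other group. LRRC8C was 0.23 to 0.40 over these fits, NFAT5 -0.338 to 0.0542, SLC6A6 -0.21 to -0.16, AKR1B1 -0.34 to -0.23 and HSPA4L -0.10 to 0.0159 on the log2 scale. With upper-quartile scaling SLC6A6 was -0.14 and was no longer called, and 3154 genes rose and 2672 fell, against 2755 and 3005 with TMM. Which and how many of the 9 tested members were called depended on the library left out. The osmolyte list held 3 to 5 rises with 1 library left out. The difference in the LRRC8D share lay between -1.69 and 1.18 percentage points, positive without shWNK1 replicate 2 (0.198) and without NS replicate 2 (1.18). With the replicate block, 5343 genes were called and no call of a member changed. The main fit held no replicate block because no method text asks for one. Same-numbered libraries did not deviate together (r = -0.0047 over 14864 genes). The cause of these changes was not tested. LRRC8E had 0 to 4 counts a library, and no setting varied the depth.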
